A study of Rattus norvegicus with 9 samples.

Results

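The collagen genes are the family that encodes the α chains of collagen, the main structural protein of scar and of basement membranes. They were taken as every protein-coding row of the count table whose symbol has the form Col, a type number, a and a chain number, which gave 44 genes of the 30507 rows, with the row of the highest total kept where a symbol stood on more than 1 row. By the class of collagen they encode, 11 are fibrillar, 8 belong to basement membranes and 25 are of other kinds. All 44 passed the filter on low counts in each of the 3 comparisons. The RNA came from the spinal cord of wild-type female Sprague-Dawley rats, 8 weeks old at the start and killed at 35 days post injury (dpi), with 3 rats and 1 library per rat in each of 3 groups. The Sham rats had the laminectomy alone (the labels call them untreated). The SCI rats had a laminectomy and a contusion at the T10 level, with an electrode plug fixed at the neck and no electrode on the cord. The SCI + SCS rats had the same contusion, an epidural electrode and stimulation at 10 kHz for 2 h per day from 1 dpi, so the electrode and the stimulation cannot be told apart between these groups. RNA was taken from the whole T9 to T11 segments, and nothing in it places a transcript in the scar. In such bulk RNA, fewer cells of a type and less RNA per cell cannot be told apart.

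A collagen molecule is a triple helix of 3 α chains, which are hydroxylated and glycosylated in the endoplasmic reticulum, trimmed outside the cell and then cross-linked. Fibrillar collagens (types I, II, III, V, XI, XXIV and XXVII) form the banded fibrils of connective tissue, while type IV forms the sheet-like network under endothelium and glia, where types XV and XVIII are attached to it. The others include the beaded filaments of type VI, fibril-associated collagens such as types XII, XIV and XVI, and collagens that span the cell membrane. In the healthy cord, collagen is found mostly in the meninges and around vessels, and after contusion fibroblast lineage cells deposit it in the lesion core.

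Several of these genes lie beside each other, and their starts are shown here because paired chains could be compared from 1 locus. In the build of the files (mRatBN7.2), Col4a2 and Col4a1 on chromosome 16 point away from each other and overlap by 307 bases, and Col4a4 and Col4a3 on chromosome 9 overlap by 316 bases in the same way. The counting was not stated to use strand, so reads in these stretches could be assigned to either gene. Col4a6 and Col4a5 on the X chromosome also point away from each other, 1319 bases apart. Col3a1 and Col5a2 are 38.2 kb apart on chromosome 9, and Col6a1 and Col6a2 are 97.2 kb apart on chromosome 20. RefSeq promoter entries (build GRCr8) were found for 35 of the 44 symbols. The sequences below run 5′ to 3′ on the plus strand and end at the base before the annotated start of the named gene. The first holds the whole 76 bases between the starts of Col4a1 and Col4a2 (chr16:84885521-84885596), and the second lies upstream of Col4a3 (chr9:91323740-91323989), toward the Col4a4 start, 412 bases of sequence separating both starts. The remaining sequences belong to Col1a2 (chr4:33518307-33518556) and Col18a1 (chr20:11473395-11473644), a fibrillar and a basement membrane gene with higher counts after injury. Capitals mark matches of 3 short motifs, read on either strand, which do not overlap one another here. They are the CCAAT box, the TATA box (searched as TATAAA) and the core of the GC box (searched as GGGCGG).
Col4a1 and Col4a2: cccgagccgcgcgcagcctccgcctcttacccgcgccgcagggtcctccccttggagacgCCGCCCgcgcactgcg
Col4a3: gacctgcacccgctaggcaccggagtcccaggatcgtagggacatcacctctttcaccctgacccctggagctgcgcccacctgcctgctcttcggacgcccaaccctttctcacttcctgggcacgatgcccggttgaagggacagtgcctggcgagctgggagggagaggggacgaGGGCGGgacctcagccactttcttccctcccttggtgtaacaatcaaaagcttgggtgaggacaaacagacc
Col1a2: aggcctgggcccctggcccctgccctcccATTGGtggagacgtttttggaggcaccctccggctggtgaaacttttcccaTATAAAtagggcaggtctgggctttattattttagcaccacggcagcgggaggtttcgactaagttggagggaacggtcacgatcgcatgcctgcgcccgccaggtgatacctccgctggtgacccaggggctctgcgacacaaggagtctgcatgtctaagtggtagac
Col18a1: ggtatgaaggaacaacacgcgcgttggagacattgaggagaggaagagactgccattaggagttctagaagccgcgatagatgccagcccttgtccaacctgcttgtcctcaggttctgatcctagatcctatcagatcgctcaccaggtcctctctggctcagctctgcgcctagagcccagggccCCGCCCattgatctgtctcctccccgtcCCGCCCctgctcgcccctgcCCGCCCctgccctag

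The stretch between Col4a1 and Col4a2 was 78.9% G or C with 13 CG pairs and held 1 GGGCGG match, 16 bases before the Col4a1 start. The Col4a3 stretch was 62.0% G or C and held 1 such match, 72 bases before its start. The Col1a2 stretch held a CCAAT match 221 bases and a TATAAA match 170 bases before its annotated start, and the Col18a1 stretch held 3 GGGCGG matches at 63, 35 and 15 bases. Over the whole 300 bases of each entry (250 before and 50 after the start), GGGCGG was found on either strand in 19 of the 35 collagen genes and in 34.9% of 27457 genes. CCAAT was found in 11 of the 35 and in 37.7% of all, and TATAAA in 4 of the 35 and in 14.3% of all. These are matches of letters and were not tested as binding sites.

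The libraries held between 62844376 and 88358570 counts, and 3 counts, taken as the smallest level that can be shown, equalled 0.034 to 0.0477 CPM, the count scaled to a common library total. Levels in CPM are normalised by TMM over all 9 libraries. The libraries of a group differed widely in these genes. Collagens took 0.0916%, 0.203% and 0.291% of the counts in Sham 1 to 3, 0.462%, 0.737% and 0.754% in SCI 1 to 3, and 0.527%, 0.339% and 0.357% in SCI + SCS 1 to 3 (95% Wilson intervals within 0.002 percentage points, for counting error only). All SCI and SCI + SCS libraries lay above all Sham libraries, and SCI + SCS 1 lay above SCI 1. Sham 1 was the lowest of its group for 33 of the 44 genes, against 41.1% of the 17800 genes with at least 90 counts in all. SCI 1 was the lowest of its group for 30 of 44 (36.5% of all) and SCI + SCS 1 the highest of its group for 32 of 44 (36.8% of all).

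Sums of fibroblast and meningeal markers were lowest in Sham 1 too, but did not follow the collagen share throughout. The 13 fibroblast markers, none at 0, summed to 856, 1627 and 2281 CPM in Sham 1 to 3, 2314, 2916 and 3319 CPM in SCI 1 to 3 and 2616, 1713 and 2243 CPM in SCI + SCS 1 to 3. The 11 markers of meningeal cells, none at 0, summed to 58.2, 271 and 556 CPM, 804, 966 and 1408 CPM and 869, 513 and 475 CPM in the same order. SCI + SCS 2 and 3 lay below Sham 3 in both sums and above it in the collagen share. In SCI compared with Sham, 9 of 13 fibroblast and 4 of 11 meningeal markers were upregulated and 0 were downregulated (edgeR test given below), where 13.4% of all genes tested were upregulated and 13.6% downregulated. The 9 mural cell markers summed to 293.7 to 467.7 CPM in Sham and 579.8 to 763.5 CPM in SCI. The 9 endothelial markers summed to 480.6, 398 and 421 CPM in Sham 1 to 3, so Sham 1 was the highest of its group there. They summed to 444.4 to 493.4 CPM in SCI and 444.4 to 493.3 CPM in SCI + SCS. The 10 macrophage markers summed to 460.9 to 507.1 CPM in Sham and 3251 to 4155 CPM in SCI, and the 6 Schwann cell markers to 3309 to 5213 CPM and 6461 to 9726 CPM. The 8 astrocyte markers summed to 5790 to 8829 CPM in Sham and 6778 to 10510 CPM in SCI. These sums do not show a uniform change of a list's members. In SCI compared with Sham, edgeR called 1 of 9 mural cell markers upregulated and 0 downregulated, and 4 had a log2FC below 0. Of 9 endothelial markers 1 was upregulated and 2 downregulated, and of 8 astrocyte markers 0 and 1. Of 10 macrophage markers 8 were upregulated, and of 6 Schwann cell markers 2, with 0 downregulated. Markers of tissue outside the cord were present too. The 23 muscle markers summed to 5465 CPM in SCI 1 and 1973 CPM in SCI 3, and to 248.1 to 374.6 CPM in the other libraries, with Mb or Tnni2 at 0 in some of these. Of these 2 libraries, SCI 1 had the lowest collagen share of its group (0.462%) and SCI 3 the highest (0.754%). Tendon markers (8, of which Kera was at 0 in some libraries of each group) summed to 33.1, 107 and 217 CPM in Sham 1 to 3 and to 207.8 to 266.8 CPM in SCI. The 15 markers of bone and cartilage summed to 72.15 to 101 CPM in Sham and 110.5 to 205.1 CPM in SCI, with Phex, Matn1, Ibsp or Sost at 0 in some libraries, and the 10 adipocyte markers to 29.57 to 42.12 CPM and 152.5 to 166.2 CPM, with Lep at 0 in all 9 libraries and Adipoq, Retn or Cidec at 0 in some. In SCI compared with Sham, edgeR called 18 of 23 muscle markers upregulated and 0 downregulated. Of 7 tendon markers tested 1 was upregulated and 1 downregulated, and of 13 bone and cartilage markers tested 6 and 3. Of 6 adipocyte markers tested 3 were upregulated and 0 downregulated. The part of these cells in the collagen results was not tested.

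**Figure D1:**
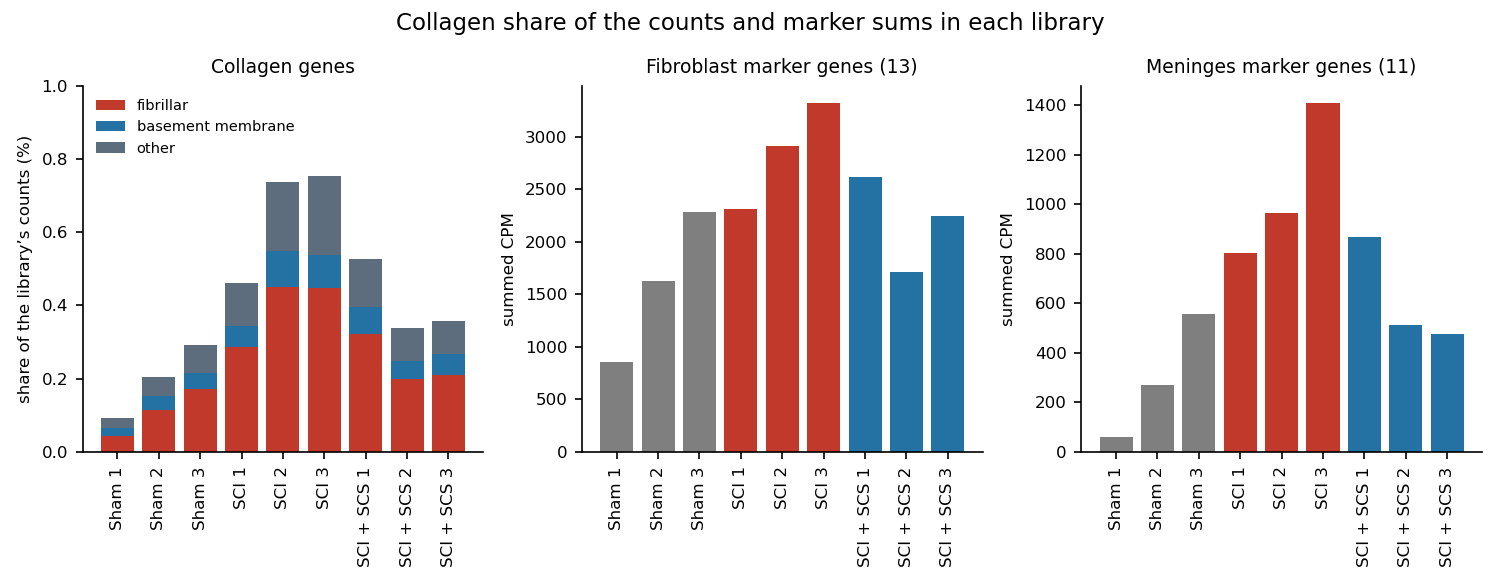
The left panel stacks the share of each library's counts (%) taken by fibrillar, basement membrane and other collagen genes, and the other panels show the summed CPM of fibroblast and meningeal markers, with 1 bar per library. In all 3 panels Sham 1 is the lowest bar, and SCI 2 and SCI 3 hold the highest collagen shares, at 0.737% and 0.754%.

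Levels of different genes were compared per length, as the FPKM of the authors. Col1a2, Col3a1 and Col1a1, the chains of types I and III, had the 3 highest means in every group. In Sham they were at 52.2 ± 37.7, 43.3 ± 32.7 and 35.6 ± 24 FPKM (mean ± SD, n = 3). This SD is the spread between rats and does not judge differences between genes of the same library. Within every Sham library Col1a2 was above Col3a1, at 13.7 against 10.1, 53.6 against 44.3 and 89.1 against 75.4 FPKM. Col3a1 was below Col1a1 in Sham 1 (10.1 against 10.7 FPKM) and above it in Sham 2 and 3. These orders were not tested. In SCI, Col3a1 had the highest mean at 233 ± 72.1 FPKM, with Col1a2 at 195 ± 39.2 and Col1a1 at 127 ± 35 FPKM. In SCI + SCS the order of the means was the same, at 127 ± 49.2, 122 ± 32.8 and 79.5 ± 21.1 FPKM. The order of Col3a1 and Col1a2 varied between the libraries of both groups. Col3a1 was above Col1a2 in SCI 2 (277.29 against 214.8 FPKM), SCI 3 (272.41 against 221.13 FPKM) and SCI + SCS 1 (183.92 against 160.01 FPKM). Col1a2 was above Col3a1 in SCI + SCS 2 (102.55 against 100.13 FPKM) and SCI + SCS 3 (103.95 against 97.48 FPKM). In SCI 1 they were level (150.33 against 150.06 FPKM). These 3 genes made up 24.1%, 42.0% and 47.8% of the summed collagen FPKM in Sham 1 to 3, 54.4%, 54.6% and 52.8% in SCI 1 to 3, and 52.7%, 48.6% and 48.7% in SCI + SCS 1 to 3. The type VI chains Col6a2 (93.1 ± 29.9 FPKM in SCI) and Col6a1 (86.6 ± 30.9 FPKM in SCI) came next after injury. In Sham, Col9a3, a chain of fibril-associated type IX, came after the type I and III chains and Col6a2, just ahead of Col6a1, at 16.5 ± 2.32 FPKM with a narrow spread. At the other end, Col10a1, Col17a1 and Col6a4 stayed below 0.1 FPKM as means in every group.

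The comparison of SCI with Sham asks what a contusion leaves in the cord at 35 dpi. Of the 44 collagen genes, 20 were upregulated and 1, Col25a1, was downregulated (quasi-likelihood test of edgeR, Benjamini-Hochberg adjustment over 17822 genes, with |log2FC|>1 and an adjusted p under 0.05), where 13.4% of all genes tested were upregulated and 13.6% downregulated. The upregulated genes were 4 of 11 fibrillar, 4 of 8 basement membrane and 12 of 25 other collagens. The median log2FC was 0.69 for fibrillar, 1.06 for basement membrane and 1.59 for other collagens, against 0.02 over all genes tested. All 3 SCI libraries lay above all 3 Sham libraries for 26 members (32.6% of all genes) and below them for 3 (31% of all genes). DESeq2 gave 25 upregulated and 2 downregulated members (13.6% and 13.2% of all genes). The count depended on single libraries: it was 9 upregulated without Sham 2, 10 without SCI 2 and 10 without SCI 3 (10.2%, 11.2% and 10.2% of all genes). The members called in all 6 fits that left out 1 library were Col5a2, Col18a1, Col6a6, Col7a1, Col13a1, Col16a1, Col22a1 and Col25a1.

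**Figure D2:**
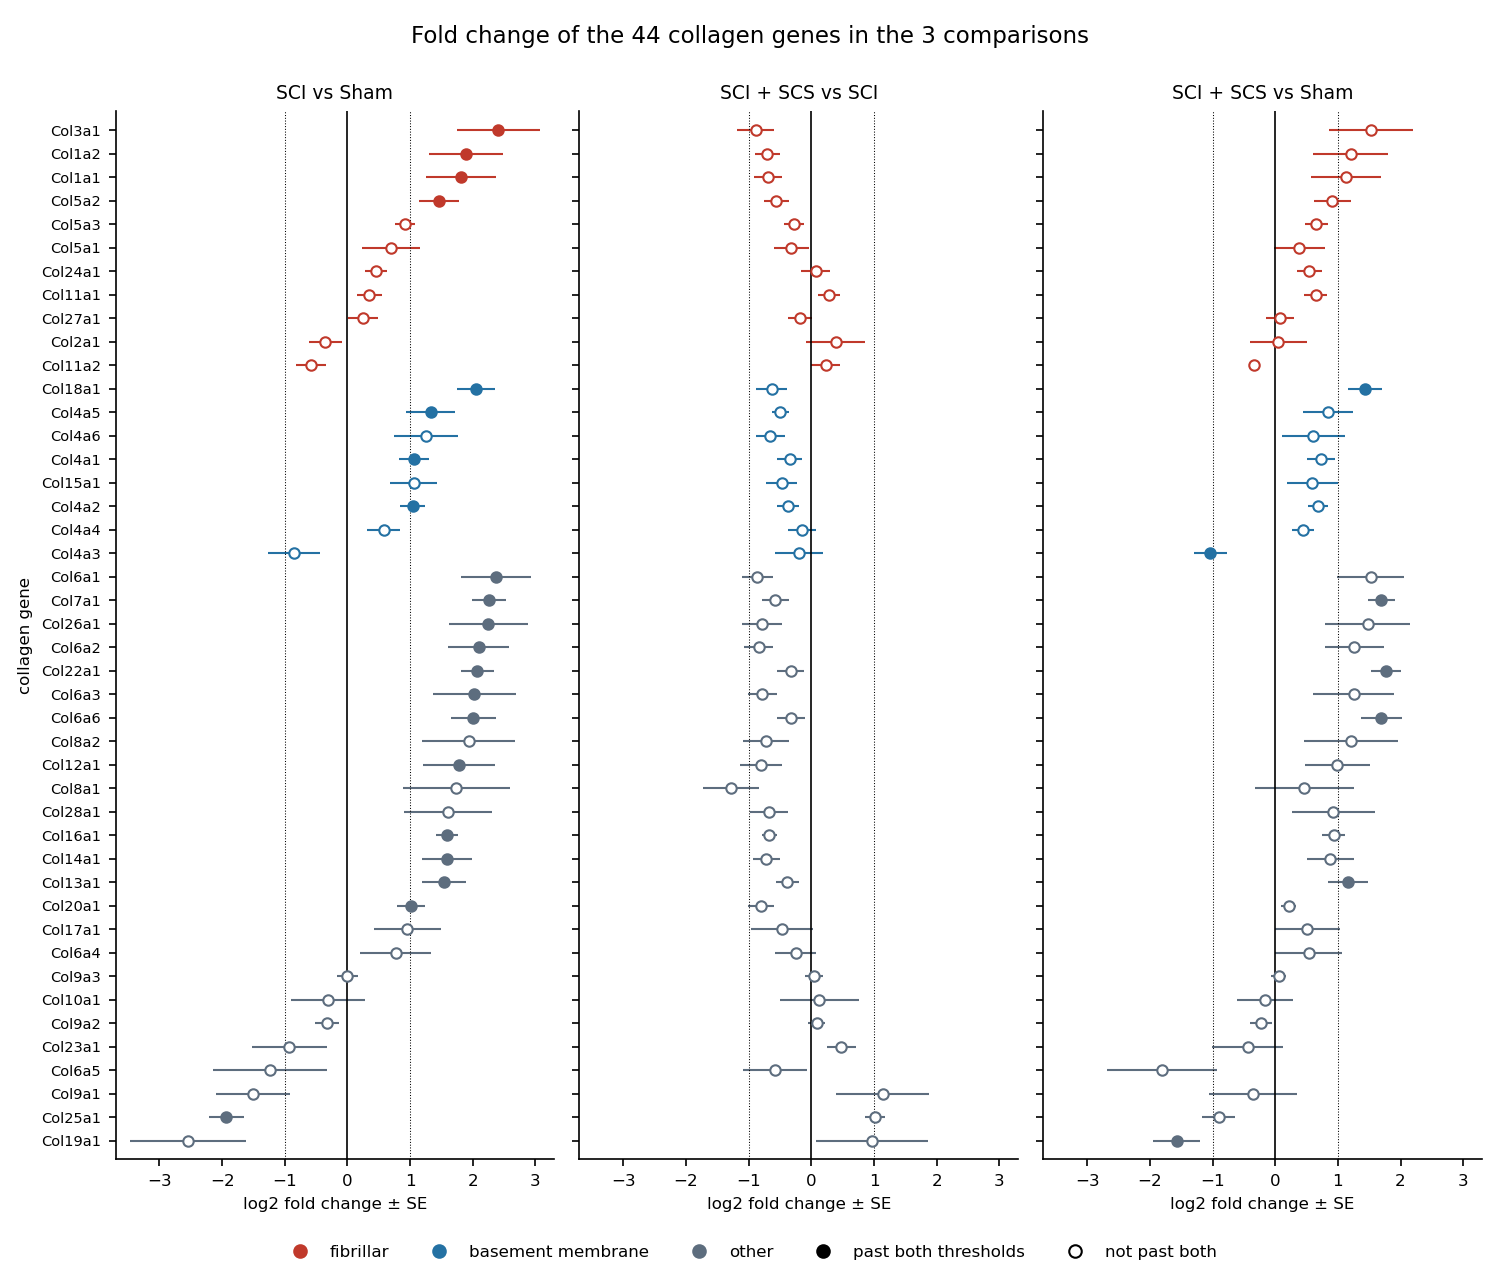
Each point is the log2 fold change of 1 of the 44 collagen genes with its standard error, in 3 panels for SCI vs Sham, SCI + SCS vs SCI and SCI + SCS vs Sham, coloured by class, with dotted lines at log2FC of 1 and -1. Filled points passed both thresholds, 21 in the first panel, 0 in the second and 7 in the third.

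Type I and type III collagen, the main components of connective tissue fibrils, rose after injury. Col1a1 (ENSRNOG00000003897, chr10:79883622-79900624, plus strand) encodes the chain present in duplicate in most type I molecules. It had 79.3, 266 and 425 CPM in Sham 1 to 3, 703, 1048 and 990.1 CPM in SCI 1 to 3 and 726, 436 and 526 CPM in SCI + SCS 1 to 3. Every SCI library was above every Sham library, and the Sham libraries spread 5.36-fold (log2FC = 1.82 ± 0.56 SE, adjusted p = 0.0339). Its partner chain Col1a2 (ENSRNOG00000011292, chr4:32563381-32598867, plus strand) had 82.3, 306 and 521 CPM in Sham 1 to 3, 979, 1196 and 1235 CPM in SCI 1 to 3 and 909.9, 587 and 590.1 CPM in SCI + SCS 1 to 3. The SCI libraries were again above the Sham libraries (log2FC = 1.89 ± 0.59 SE, adjusted p = 0.0362). Col3a1 (ENSRNOG00000003357, chr9:47374593-47410547, plus strand), the single chain of type III, had 61.9, 258 and 450.2 CPM in Sham 1 to 3, 998, 1576 and 1554 CPM in SCI 1 to 3 and 1068, 585 and 566 CPM in SCI + SCS 1 to 3. It had the largest log2FC of the members called (log2FC = 2.41 ± 0.66 SE, adjusted p = 0.023), with a Sham spread of 7.27-fold. The 3 genes lost the call without Sham 2, SCI 2 or SCI 3, and Col1a1 and Col1a2 also without SCI 1, with log2FC still between 1.38 and 3.08 over the fits without 1 library.

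Type V collagen regulates the diameter of type I fibrils, and 1 of its 3 chains passed. Col5a2 (ENSRNOG00000003736, chr9:47448736-47598154, minus strand) had 41, 73.4 and 93.9 CPM in Sham 1 to 3, 149, 196 and 234 CPM in SCI 1 to 3 and 158, 119 and 114 CPM in SCI + SCS 1 to 3. The SCI and Sham libraries did not overlap, and it was upregulated (log2FC = 1.46 ± 0.32 SE, adjusted p = 0.0103). Col5a1 (ENSRNOG00000008749, chr3:11208512-11347485, plus strand), the other common chain, had 12.6, 30.8 and 41.8 CPM in Sham 1 to 3, 27.7, 55.6 and 55.9 CPM in SCI 1 to 3 and 44.8, 31.1 and 35 CPM in SCI + SCS 1 to 3. SCI 1 fell between Sham 1 and Sham 2, and the gene did not pass (log2FC = 0.69 ± 0.46 SE, adjusted p = 0.247). Col5a3 had 52.8, 72.7 and 73.2 CPM in Sham and 111, 141 and 127 CPM in SCI, without overlap, and missed only the fold threshold (log2FC = 0.92 ± 0.16 SE, adjusted p = 0.00508). The difference between chains was not tested. Of the other fibrillar genes, known mainly from cartilage (Col2a1, Col11a1, Col11a2) or as minor fibril components (Col24a1, Col27a1), 0 passed. Their log2FC lay between -0.57 for Col11a2 and 0.46 for Col24a1. Col11a2 went from 79.1, 74.7 and 79 CPM in Sham to 73.5, 47.5 and 37.4 CPM in SCI, below Sham in all 3 libraries (adjusted p = 0.087 in edgeR's test).

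In basement membranes, the ubiquitous α1 and α2 chains of type IV rose by about the same factor. Col4a1 (ENSRNOG00000016281, chr16:78183533-78294412, plus strand) had 78.3, 123 and 124 CPM in Sham 1 to 3, 173, 276 and 238 CPM in SCI 1 to 3 and 219, 148 and 170 CPM in SCI + SCS 1 to 3. Col4a2 (ENSRNOG00000023972, chr16:78047602-78183839, minus strand) had 61.4, 81.2 and 83.2 CPM in Sham 1 to 3, 120.4, 183 and 167 CPM in SCI 1 to 3 and 139, 104 and 118 CPM in SCI + SCS 1 to 3. Neither overlapped between SCI and Sham, and both were a little above the fold threshold (Col4a1 log2FC = 1.06 ± 0.24 SE, adjusted p = 0.0118; Col4a2 log2FC = 1.04 ± 0.20 SE, adjusted p = 0.00615). Both lost the call without Sham 1 or SCI 2, and Col4a2 also without SCI 3, when the log2FC was as low as 0.88 for Col4a1 and 0.91 for Col4a2. The α5 chain Col4a5 was also upregulated (log2FC = 1.33 ± 0.39 SE, adjusted p = 0.0302), and lost the call in 5 of the 6 fits without 1 library. Its neighbour Col4a6 (log2FC = 1.26 ± 0.51 SE, adjusted p = 0.0795) and the multiplexin Col15a1 (log2FC = 1.06 ± 0.38 SE, adjusted p = 0.0567) had non-overlapping libraries and missed the adjusted p. Col18a1 (ENSRNOG00000001229, chr20:11474104-11582593, plus strand), whose C-terminal fragment is endostatin, had 30.3, 45.8 and 58.2 CPM in Sham 1 to 3, 131, 219 and 216 CPM in SCI 1 to 3 and 155, 102 and 105 CPM in SCI + SCS 1 to 3. It rose 4.16-fold (log2FC = 2.06 ± 0.30 SE, adjusted p = 0.0029) and kept the call in all 6 fits without 1 library.

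The α3 and α4 chains of type IV, which assemble with α5 in the kidney and other specialised basement membranes, had log2FC of opposite sign, with 412 bases between their starts. Col4a4 had 4.78, 5.94 and 7.15 CPM in Sham and 6.14, 11 and 9.94 CPM in SCI (log2FC = 0.58 ± 0.27 SE, adjusted p = 0.112). Col4a3, at 114, 139 and 97 counts in Sham and 45, 91 and 45 counts in SCI, had 1.79, 1.58 and 1.11 CPM and 0.571, 1.29 and 0.65 CPM (log2FC = -0.85 ± 0.41 SE, adjusted p = 0.127). Neither passed. The ratio of their FPKM is given below with the other chain ratios.

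Type VI collagen, which forms beaded filaments around cells, had the highest level outside the fibrillar class. Col6a1 (ENSRNOG00000001249, chr20:11905957-11924597, plus strand) had 29, 84.7 and 144 CPM in Sham 1 to 3, 314, 459 and 577 CPM in SCI 1 to 3 and 316, 208 and 216 CPM in SCI + SCS 1 to 3. Col6a2 (ENSRNOG00000001254, chr20:12021767-12047248, plus strand) had 41.7, 90.4 and 165 CPM in Sham 1 to 3, 316, 432 and 534 CPM in SCI 1 to 3 and 304, 211 and 198 CPM in SCI + SCS 1 to 3. The SCI libraries of both were above the Sham libraries, by 5.17-fold for Col6a1 (log2FC = 2.37 ± 0.56 SE, adjusted p = 0.014) and 4.27-fold for Col6a2 (log2FC = 2.1 ± 0.49 SE, adjusted p = 0.013). Col6a3 (ENSRNOG00000019648, chr9:91361583-91439471, minus strand), another chain of the common filament, had 6.19, 30.5 and 48.9 CPM in Sham 1 to 3, 88.9, 116 and 147 CPM in SCI 1 to 3 and 87.3, 57.8 and 58.7 CPM in SCI + SCS 1 to 3. It was upregulated (log2FC = 2.03 ± 0.66 SE, adjusted p = 0.0423), with a Sham spread of 7.9-fold. Without Sham 2 none of these 3 was called, while Col6a1 and Col6a2 were called in the other 5 fits without 1 library. Col6a6, which can take the place of the α3 chain, rose from 1.21, 1.73 and 2.81 CPM to 6.15, 9.79 and 7.52 CPM (log2FC = 2.01 ± 0.35 SE, adjusted p = 0.00506). Its neighbours on chromosome 8, Col6a4 (0.77) and Col6a5 (-1.24), did not pass, at no more than 3.21 CPM in any library.

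**Figure D3:**
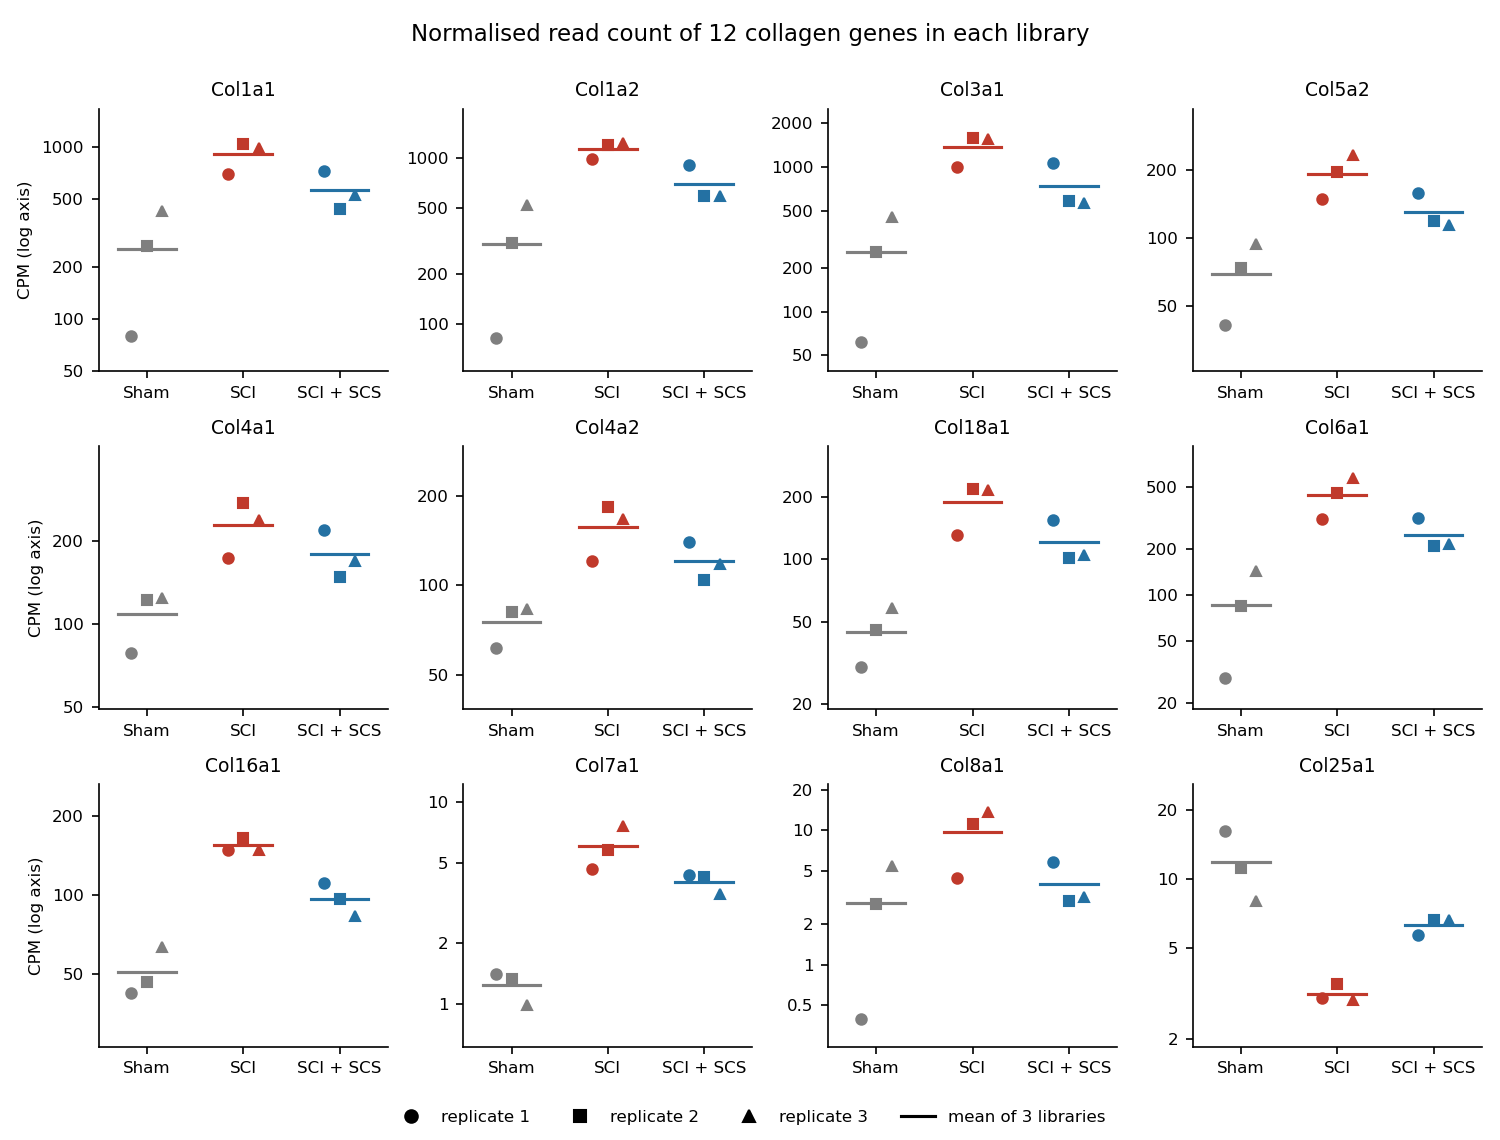
Each panel shows 1 collagen gene with its normalised read count (CPM, log axis) in the 9 libraries, grouped as Sham, SCI and SCI + SCS, with symbols for replicate number and a bar at the mean of 3 libraries. Col16a1 and Col7a1 have narrow Sham groups, Col1a1 and Col3a1 have wide ones, and Col25a1 runs the other way, from 8.02 to 16.2 CPM in Sham to 2.95 to 3.46 CPM in SCI.

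Among fibril-associated collagens, Col12a1 (ENSRNOG00000058470, chr8:80547593-80665686, minus strand), found in tissues under load, had 13.8, 34.5 and 64.7 CPM in Sham 1 to 3, 72, 159 and 163 CPM in SCI 1 to 3 and 98.7, 60.4 and 65.5 CPM in SCI + SCS 1 to 3. It was upregulated with a wide spread (log2FC = 1.78 ± 0.58 SE, adjusted p = 0.0403). Its relative Col14a1 rose from 11.5, 21.8 and 34 CPM in Sham to 49.2, 81.4 and 74 CPM in SCI (log2FC = 1.59 ± 0.40 SE, adjusted p = 0.0168). Col16a1 (ENSRNOG00000031475, chr5:142388426-142442825, plus strand), a minor collagen associated with fibrils, had 42, 46.5 and 63.4 CPM in Sham 1 to 3, 149, 165 and 149 CPM in SCI 1 to 3 and 111, 96 and 82.6 CPM in SCI + SCS 1 to 3. The replicates of each group were close, and it had the smallest adjusted p of the 44 genes (log2FC = 1.59 ± 0.17 SE, adjusted p = 0.00146). Col22a1, known from the junction of muscle and tendon, rose from 0.865, 1.03 and 0.709 CPM to 2.98, 3.92 and 4.26 CPM (log2FC = 2.08 ± 0.27 SE, adjusted p = 0.00213). The row of Col20a1 (ENSRNOG00000010326, chr3:168084560-168135309, plus strand) had 22.7, 20.4 and 26.1 CPM in Sham 1 to 3, 38.8, 38.2 and 64.3 CPM in SCI 1 to 3 and 25.5, 29 and 25.7 CPM in SCI + SCS 1 to 3 (log2FC = 1.01 ± 0.23 SE, adjusted p = 0.0112). The identifier of Col20a1 stands on a second row with 26 counts in SCI 3 and 1739 to 3087 in the other libraries, and with both rows summed the log2FC of Col20a1 was 0.13 (adjusted p = 0.284 in edgeR's test). The type IX chains Col9a1 (-1.51), Col9a2 (-0.32) and Col9a3 (-0.0014) did not pass.

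Type VIII collagen, a short-chain collagen of vessel walls and of corneal endothelium, had large fold changes with wide spreads. Col8a1 (ENSRNOG00000039668, chr11:42777628-42906424, plus strand) had 0.393, 2.84 and 5.46 CPM in Sham 1 to 3, 4.4, 11.2 and 13.8 CPM in SCI 1 to 3 and 5.81, 2.99 and 3.21 CPM in SCI + SCS 1 to 3. SCI 1 lay below Sham 3, and edgeR did not call it (log2FC = 1.74 ± 0.85 SE, adjusted p = 0.131), while DESeq2 did (adjusted p = 0.0412). Col8a2 had 9.04, 44.5 and 89 CPM in Sham and 119, 197 and 235 CPM in SCI, without overlap (log2FC = 1.94 ± 0.74 SE, adjusted p = 0.067). Another 3 collagens with low counts rose. Col7a1, the anchoring fibril collagen, rose from 1.41, 1.33 and 0.984 CPM to 4.67, 5.78 and 7.62 CPM (log2FC = 2.26 ± 0.27 SE, adjusted p = 0.00192). The transmembrane Col13a1 rose from 2.5, 4.52 and 6.33 CPM to 9.999, 15.5 and 13.8 CPM (log2FC = 1.54 ± 0.35 SE, adjusted p = 0.0126), and Col26a1 from 0.157, 1.02 and 1.08 CPM to 3.71, 3.93 and 3.32 CPM (log2FC = 2.25 ± 0.63 SE, adjusted p = 0.0244). Col28a1, a collagen described in peripheral nerve, had 1.12, 8.61 and 7.82 CPM and 10.8, 24.2 and 18.9 CPM without overlap and was not called by edgeR (log2FC = 1.6 ± 0.70 SE, adjusted p = 0.0991). The transmembrane Col17a1 (0.96) and Col23a1 (-0.93) and the cartilage collagen Col10a1 (-0.31) did not pass.

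The collagen that fell is a neuronal one. Col25a1 (ENSRNOG00000050706, chr2:218755691-219153501, plus strand), a transmembrane collagen of neurons, had 16.2, 11.2 and 8.02 CPM in Sham 1 to 3, 3.01, 3.46 and 2.95 CPM in SCI 1 to 3 and 5.65, 6.61 and 6.63 CPM in SCI + SCS 1 to 3. All SCI libraries were below all Sham libraries and close to each other, and the level was 3.81-fold lower in SCI (log2FC = -1.93 ± 0.28 SE, adjusted p = 0.00291). Col19a1, a fibril-associated collagen that is also made by neurons, had 4.1, 3.07 and 2.1 CPM in Sham and 0.368, 1.19 and 0.0434 CPM in SCI, with SCI 3 near the smallest level that can be shown (log2FC = -2.54 ± 0.93 SE, adjusted p = 0.0589), and was downregulated in DESeq2 (adjusted p = 0.00779). The 12 neuron markers were all downregulated in SCI compared with Sham (edgeR), where 13.6% of all genes tested were. These markers summed to 10170, 6314 and 4541 CPM in Sham 1 to 3, 2102, 1214 and 606 CPM in SCI 1 to 3 and 1965, 2318 and 3415 CPM in SCI + SCS 1 to 3. Their part in these values was not tested.

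The comparison of SCI + SCS with SCI asks what differed in stimulated cords. With the same edgeR test, Benjamini-Hochberg adjusted over 17663 genes, 0 of the 44 collagens were upregulated and 0 downregulated, against 0.00566% and 0% of all genes. Most had lower means in the stimulated cords. The log2FC was below 0 for 33 of the 44 (50.7% of all genes), including all 8 of the basement membrane, and the median was -0.27 for fibrillar, -0.42 for basement membrane and -0.57 for other collagens, against -0.01 over all genes. At an unadjusted p under 0.05, 17 members were lower and 1 was higher (10.9% and 13.3% of all genes). All 3 SCI + SCS libraries lay below all 3 SCI libraries for 8 members (13.9% of all) and above them for 1 (15.7% of all). DESeq2 called Col8a1 lower and Col25a1 higher (2.14% and 2.53% of all genes). With no fold threshold, an adjusted p under 0.05 in DESeq2 was reached by 13 members that were lower and 1 that was higher (6.9% and 8.83% of all genes), so the outcome for these genes differs between the tests. The SCI libraries enter this comparison and that with Sham, so a high or low SCI library moves both.

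Among the abundant fibrillar genes, SCI + SCS 1 was higher than the other two stimulated libraries. Col1a1 in SCI + SCS 1 (726 CPM) was above SCI 1 (703 CPM), while SCI + SCS 2 and 3 were at 436 and 526 CPM (log2FC = -0.69 ± 0.23 SE, adjusted p = 0.135). Col3a1 showed the same overlap (log2FC = -0.89 ± 0.29 SE, adjusted p = 0.137). For Col1a2 all SCI + SCS libraries were below all SCI libraries (log2FC = -0.70 ± 0.20 SE, adjusted p = 0.11). Col5a2 (log2FC = -0.56 ± 0.19 SE, adjusted p = 0.149) and Col5a1 (log2FC = -0.32 ± 0.28 SE, adjusted p = 0.52) overlapped. None of these passed in edgeR. In DESeq2 the adjusted p was 0.0197 for Col1a1, 0.00683 for Col1a2 and 0.0148 for Col3a1, at log2FC of -0.70, -0.71 and -0.90.

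Of the basement membrane genes, Col18a1 (log2FC = -0.63 ± 0.24 SE, adjusted p = 0.176), Col4a1 (log2FC = -0.35 ± 0.21 SE, adjusted p = 0.35) and Col4a2 (log2FC = -0.37 ± 0.18 SE, adjusted p = 0.256) were lower in the means with overlapping libraries. Col4a5 was the one member of that class without overlap, with 67.4, 71 and 78.9 CPM in SCI and 60.4, 49.2 and 43.6 CPM in SCI + SCS (log2FC = -0.50 ± 0.13 SE, adjusted p = 0.104). In type VI, Col6a2 (log2FC = -0.84 ± 0.23 SE, adjusted p = 0.108) and Col6a3 (log2FC = -0.78 ± 0.23 SE, adjusted p = 0.115) were lower in all 3 libraries, and Col6a1 overlapped by a small margin, with SCI + SCS 1 at 316 CPM and SCI 1 at 314 CPM (log2FC = -0.86 ± 0.25 SE, adjusted p = 0.116). Col12a1 (log2FC = -0.80 ± 0.33 SE, adjusted p = 0.201) and Col8a1 (log2FC = -1.28 ± 0.45 SE, adjusted p = 0.152) overlapped, and the latter had the lowest log2FC of all members.

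The smallest adjusted p of the family belonged to 3 genes outside the main fibril and sheet collagens, each under 0.1, where 2.6% of all genes reached this with a lower and 4.19% with a higher level. Col25a1 was higher in every SCI + SCS library, at 5.65, 6.61 and 6.63 CPM against 3.01, 3.46 and 2.95 CPM in SCI (log2FC = 1.01 ± 0.16 SE, adjusted p = 0.0719), and remained below Sham. DESeq2 called it (adjusted p = 3.91e-06). All 12 neuron markers had a log2FC above 0 in the same comparison (49.3% of all genes). Of these, edgeR called 0 and DESeq2 called 5 higher (0.00566% and 2.53% of all genes). Col16a1 was lower in every SCI + SCS library, at 111, 96 and 82.6 CPM against 149, 165 and 149 CPM (log2FC = -0.67 ± 0.12 SE, adjusted p = 0.0769). Col20a1 was lower too, at 25.5, 29 and 25.7 CPM against 38.8, 38.2 and 64.3 CPM (log2FC = -0.81 ± 0.21 SE, adjusted p = 0.0984), but with both rows of its identifier summed the log2FC was -0.15 (adjusted p = 0.269), so this value rests on how reads were split between the rows. In this comparison all 13 fibroblast markers and all 11 meningeal markers had a log2FC below 0 (50.7% of all genes). Of these edgeR called 0, while 9 and 5 were lower at an unadjusted p under 0.05 (10.9% of all genes). DESeq2 called 2 and 1 lower (2.14% of all genes). Other marker sums also differed without overlap between SCI and SCI + SCS. Macrophage markers summed to 3251 to 4155 CPM in SCI and 2347 to 2771 CPM in SCI + SCS, and adipocyte markers to 152.5 to 166.2 CPM and 65.63 to 85.75 CPM. Astrocyte markers overlapped, at 6778 to 10510 CPM and 10310 to 13390 CPM, and muscle markers were high in SCI 1 and SCI 3 alone. Their part in the collagen values was not tested.

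The comparison of SCI + SCS with Sham asks what differed between injured, stimulated cord and uninjured cord. Over 17640 genes, 5 collagens were upregulated and 2 downregulated (edgeR, same test), where 6.28% and 5.44% of all genes were, and the median log2FC of the family was 0.65 against 0.01 over all genes. The upregulated ones were Col22a1 (log2FC = 1.76 ± 0.24 SE, adjusted p = 0.00569), Col7a1 (log2FC = 1.7 ± 0.22 SE, adjusted p = 0.00519), Col6a6 (log2FC = 1.69 ± 0.33 SE, adjusted p = 0.0137), Col18a1 (log2FC = 1.43 ± 0.27 SE, adjusted p = 0.0129) and Col13a1 (log2FC = 1.17 ± 0.32 SE, adjusted p = 0.0351). The SCI + SCS libraries of these 5 were at 2.5, 3.02 and 3.34 CPM for Col22a1, 4.35, 4.23 and 3.48 CPM for Col7a1, 7.38, 5.93 and 5.31 CPM for Col6a6, 155, 102 and 105 CPM for Col18a1 and 9.53, 10.8 and 9.65 CPM for Col13a1. The 2 downregulated ones were Col19a1, with 0.659, 1.4 and 1.05 CPM (log2FC = -1.57 ± 0.37 SE, adjusted p = 0.0231), and Col4a3, with 0.687, 0.738 and 0.752 CPM (log2FC = -1.04 ± 0.27 SE, adjusted p = 0.0292). Each of the 7 had no overlap between the groups, as had 21 members above Sham (27.2% of all genes) and 4 below (26% of all).

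The abundant collagens were not among those called by edgeR. Col1a1 (log2FC = 1.13 ± 0.56 SE, adjusted p = 0.156), Col1a2 (log2FC = 1.2 ± 0.60 SE, adjusted p = 0.162) and Col3a1 (log2FC = 1.53 ± 0.67 SE, adjusted p = 0.119) had every SCI + SCS library above every Sham library, with standard errors over 0.5, and differences of this size did not pass with this spread between rats. Col6a1 (log2FC = 1.52 ± 0.53 SE, adjusted p = 0.0694), Col6a2 (log2FC = 1.26 ± 0.47 SE, adjusted p = 0.081) and Col6a3 (log2FC = 1.25 ± 0.65 SE, adjusted p = 0.176) also lay above Sham in every library and did not pass in edgeR. DESeq2 called the same 7 members and also Col6a1 (adjusted p = 0.0062) and Col6a2 (adjusted p = 0.0129), giving 7 upregulated and 2 downregulated (7.19% and 6.25% of all genes). Col5a2 (log2FC = 0.91 ± 0.30 SE, adjusted p = 0.0582) missed both thresholds, while Col4a1 (log2FC = 0.73 ± 0.22 SE, adjusted p = 0.0462), Col4a2 (log2FC = 0.68 ± 0.16 SE, adjusted p = 0.0212) and Col16a1 (log2FC = 0.93 ± 0.18 SE, adjusted p = 0.0138) passed the adjusted p and missed the fold. Col5a1 (log2FC = 0.38 ± 0.41 SE, adjusted p = 0.49), Col12a1 (log2FC = 0.99 ± 0.52 SE, adjusted p = 0.179) and Col8a1 (log2FC = 0.47 ± 0.79 SE, adjusted p = 0.672) overlapped with Sham, and Col20a1 had a log2FC of 0.22. Col25a1 was still below Sham in all libraries (log2FC = -0.90 ± 0.26 SE, adjusted p = 0.04) and missed the fold threshold. The count turned on the Sham and stimulated libraries. It was 13 upregulated without Sham 3, 2 without Sham 2 and 3 without SCI + SCS 1 (8.8%, 3.51% and 3.23% of all genes), and the downregulated members numbered 0 to 3. Col7a1 and Col22a1 were called in all 6 fits that left out 1 library.

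Ratios of chains compare genes within 1 library, so the library total cancels out. In total 8 ratios of FPKM were compared in 3 comparisons, 24 tests, by two-sided exact permutation over 3 and 3 libraries, for which only 10 splits exist and p = 0.1 is the smallest value. Adjusted over the 24, no p was under 0.343. Col3a1 over Col1a1 was 0.95, 1.18 and 1.29 in Sham 1 to 3, 1.73, 1.83 and 1.91 in SCI 1 to 3 and 1.79, 1.63 and 1.31 in SCI + SCS 1 to 3. The SCI libraries were all higher than the Sham libraries and close together (exact permutation p = 0.1, adjusted p = 0.343), as were the SCI + SCS libraries against Sham (exact permutation p = 0.1). Col1a2 over Col1a1 had 1.29, 1.43 and 1.52 in Sham and 1.73, 1.42 and 1.55 in SCI and overlapped (exact permutation p = 0.3). For the pair with 76 bases between its starts, Col4a1 over Col4a2 lay between 1.31 and 1.61 in all 9 libraries (exact permutation p = 0.9 for SCI against Sham). Col4a5 over Col4a6 also overlapped between all groups, at 5.87 to 8.47. Col4a4 over Col4a3 was 2.18, 3.08 and 5.27 in Sham, 8.96, 7.0 and 12.6 in SCI and 9.79, 8.84 and 8.97 in SCI + SCS. Every injured library, stimulated or not, was above every Sham library (exact permutation p = 0.1 for each), though Col4a3 rests on few counts and the pair overlaps in the annotation. Col6a1 over Col6a2 was 0.615, 0.83 and 0.776 in Sham and 0.876, 0.937 and 0.953 in SCI, without overlap (exact permutation p = 0.1). The ratios Col4a4 over Col4a3, Col6a1 over Col6a2 and Col3a1 over Col1a1 were lowest in Sham 1, the library with the lowest collagen share. Sham 1 was also the lowest for Col1a2 over Col1a1 (1.29) and Col4a1 over Col4a2 (1.31). It was the highest for Col5a2 over Col1a1 (0.495) and Col4a5 over Col4a6 (8.47). Col8a2 over Col8a1 was 14.2, 9.39 and 9.79 in Sham, 16.2, 10.5 and 10.2 in SCI and 17.6, 15.9 and 15.2 in SCI + SCS. It overlapped between SCI and Sham (exact permutation p = 0.5) and was higher in every SCI + SCS library than in every Sham library (exact permutation p = 0.1). Col5a2 over Col1a1 was 0.495, 0.264 and 0.211 in Sham, 0.203, 0.179 and 0.226 in SCI and 0.208, 0.261 and 0.208 in SCI + SCS and overlapped between all groups.

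**Figure D4:**
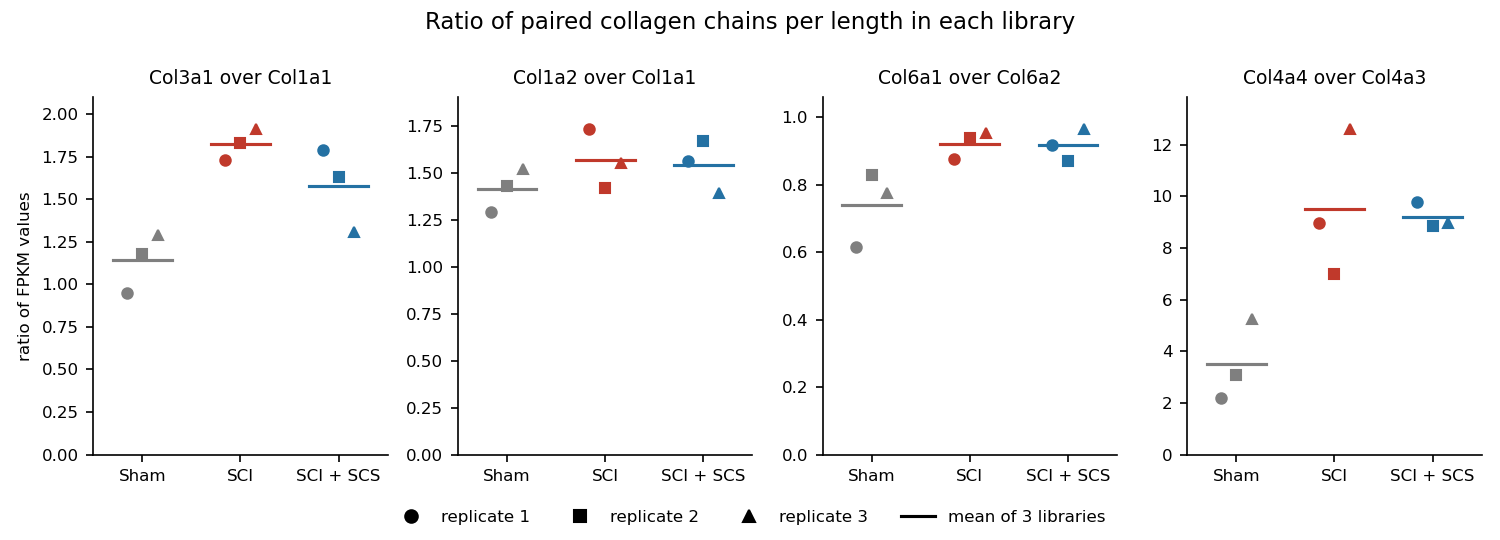
The ratio of the FPKM of 2 collagen chains is plotted for each library on axes that start at 0, with symbols for replicate number and a bar at the mean of 3 libraries. Col3a1 over Col1a1, Col6a1 over Col6a2 and Col4a4 over Col4a3 lie higher in every SCI library than in every Sham library, and Col1a2 over Col1a1 overlaps between all groups.

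The enzymes that make and mature collagen were read from a list of 37 genes, of which 35 were tested. In SCI compared with Sham, 12 were upregulated and 2 downregulated (13.4% and 13.6% of all genes), with a median log2FC of 0.86 against 0.02 over all genes. The larger changes were in Loxl1 (log2FC = 2.42, adjusted p = 0.0471) and Loxl3 (log2FC = 1.86, adjusted p = 0.00284), which belong to the lysyl oxidase family that cross-links fibrils, in Pcolce (log2FC = 2.12, adjusted p = 0.0169), the enhancer of C-propeptide removal, and in P3h3 (log2FC = 1.65, adjusted p = 0.0012) of the prolyl 3-hydroxylase family. Serpinh1, the collagen chaperone of the endoplasmic reticulum (chosen after its value was seen), was also upregulated (log2FC = 1.29, adjusted p = 0.00743). Colgalt2, a collagen galactosyltransferase, was downregulated (log2FC = -2.26, adjusted p = 0.00149), as was Tll2, a protease related to Bmp1 (log2FC = -2.22, adjusted p = 0.00268), which had a mean of 0.665 CPM over all libraries and is named after its value was seen. In SCI + SCS compared with SCI, 0 of the 35 were called by edgeR. At an unadjusted p under 0.05, 17 were lower and 3 higher (10.9% and 13.3% of all genes), and DESeq2 called 1 lower (2.14% of all genes). The values there were -1.18 for Loxl1 (adjusted p = 0.106, edgeR), -0.75 for Loxl3 (adjusted p = 0.0774, edgeR), -0.78 for Pcolce, -0.47 for P3h3 and 0.88 for Colgalt2, all as log2FC. In SCI + SCS compared with Sham, 4 were upregulated and 2 downregulated (6.28% and 5.44% of all genes), with P3h3 at 1.19, Loxl3 at 1.13 and Colgalt2 at -1.37 among them.

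Of 12 collagen receptors listed, 10 were tested by edgeR in SCI compared with Sham, and 1 was upregulated, a share near the 13.4% of all genes. It was Pear1, a receptor of platelets and endothelium (log2FC = 1.56, adjusted p = 0.00652), whose binding of collagen was not examined here. The other 9 tested, Itgb1, Ddr1 and Ddr2 among them, were not called by edgeR. DESeq2 called 3 of 11 upregulated and 0 downregulated (13.6% and 13.2% of all genes). These were Pear1, Itga10 (adjusted p = 0.00673) and Mrc2 (adjusted p = 0.0101), so the count depends on the test. Pear1 was at a log2FC of -0.53 in SCI + SCS compared with SCI (adjusted p = 0.175, edgeR) and was upregulated in SCI + SCS compared with Sham (log2FC = 1.04, adjusted p = 0.0422). In SCI + SCS compared with SCI, 0 of 10 were called by edgeR or DESeq2, with 1 higher and 1 lower at an unadjusted p under 0.05 (13.3% and 10.9% of all genes).

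The matrix proteins that collagens assemble with were read from lists of their own. The fibrous matrix list also holds Ctsk, a protease that cleaves collagen. Of 21 laminins, nidogens and other basement membrane partners, 10 were upregulated and 0 downregulated in SCI (13.4% and 13.6% of all genes), with a median log2FC of 1.06. They included the linker Nid2 (log2FC = 1.83, adjusted p = 0.0219) and the laminin chains Lama1 (log2FC = 1.68, adjusted p = 0.00298), Lamb1 (log2FC = 1.66, adjusted p = 0.00351) and Lama2 (log2FC = 1.61, adjusted p = 0.00877). Of 20 fibrous matrix partners tested, 13 were upregulated and 0 downregulated, with a median log2FC of 1.79. The larger changes were in Ctsk, the collagen-cleaving cathepsin K (log2FC = 3.54, adjusted p = 0.00296), Ltbp2 of the latent TGF-β binding protein family (log2FC = 3.02, adjusted p = 0.0136), thrombospondin Thbs1 (log2FC = 2.7, adjusted p = 0.0414) and the microfibril protein Mfap2 (log2FC = 2.38, adjusted p = 0.00689). Of the fibrous matrix genes, 3 (Fbln1, Postn and Mfap5) are also among the fibroblast markers. In SCI + SCS compared with SCI, 0 genes of both lists were called by edgeR. At an unadjusted p under 0.05, 8 of the 21 basement membrane partners were lower and 0 higher, and 15 of the 20 fibrous matrix partners were lower and 1 higher (10.9% and 13.3% of all genes). DESeq2 called 4 of the fibrous matrix partners lower (2.14% of all genes). The log2FC was -0.75 for Nid2, -0.63 for Lama1, -0.65 for Lamb1, -0.70 for Lama2, -1.24 for Ctsk, -1.21 for Ltbp2, -1.47 for Thbs1 and -0.96 for Mfap2. In SCI + SCS compared with Sham, 2 of each list were upregulated (6.28% of all genes), namely Lama1 (1.06), Lamb1 (1.02), Ctsk (2.31) and the elastic fibre protein Efemp2 (1.45) as log2FC.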

How the data were processed

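RNA sequencing counts of 9 spinal cord libraries were analysed, 3 per group. Per the labels all belong to 1 batch, and each library is from a separate rat. Per the submitters' processing notes, the authors used fastp 0.23.2, HISAT2 2.2.1 and the build mRatBN7.2. The counting program is not given in the sources used here. The authors deposited raw counts per gene and a table of FPKM, which are counts scaled by gene length and library total. The library kit and counting were not stated to keep strand.

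From the deposited counts, groups were compared by the quasi-likelihood test of edgeR 4.0.16 in R 4.3.3 (TMM normalization, filterByExpr with a minimum count of 10) over the 6 libraries of each comparison, without covariates, and p-values were adjusted over all genes tested. DEGs had |log2FC|>1 and an adjusted p under 0.05, the thresholds of the study. The standard error was |log2FC| divided by the square root of F. Alternatives were DESeq2 1.42.0, other filters and size factors, all 9 libraries in 1 fit, a replicate block, normalization without genes of muscle and adipocytes, omission of each library in turn, limma 3.58.1 on log2(FPKM + 1) and log2(FPKM + 0.1) of the deposited FPKM with a mean of at least 0.1, and, added after seeing the data, rows of 1 Ensembl identifier summed. There are 494 identifiers with several rows, that of Col20a1 among the collagens. The tests were checked on simulated data. No pair of libraries agreed within sampling noise.

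The members, the 4 lists of partner genes and the 12 marker lists were chosen with earlier results of these data known. Values in every library are given for Col1a1, Col1a2, Col3a1, Col5a1, Col5a2, Col4a1, Col4a2, Col18a1, Col6a1, Col6a2, Col6a3, Col8a1 and Col12a1, and for any other member that was a DEG in SCI + SCS vs SCI, was downregulated in SCI vs Sham, or had an adjusted p under 0.1 in SCI + SCS vs SCI. The others are given by range or where called. From each list, up to 4 DEGs per direction with the largest |log2FC| in SCI vs Sham and a mean of at least 1 CPM are named. Serpinh1 and Tll2 are named outside this rule. Promoter sequences are from RefSeq (GRCr8), whose coordinates are not those of the count files.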

Additional observations from a re-analysis of the deposited data

How the results depend on the processing

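The number of upregulated collagens in SCI vs Sham was 20 and stayed between 17 and 25 under the alternatives that kept all 6 libraries, and between 9 and 23 when 1 library was left out. Downregulated collagens in that comparison (1) numbered 2 in DESeq2, with the replicate block, with all 9 libraries in 1 fit and with log2(FPKM + 0.1), 0 with log2(FPKM + 1), and 1 to 3 without 1 library. In SCI + SCS vs SCI, DESeq2 gave 1 upregulated and 1 downregulated collagen, and the other alternatives gave 0 and 0. In SCI + SCS vs Sham, upregulated collagens (5) numbered 7 in DESeq2, 2 with the replicate block, 2 with log2(FPKM + 1) and 2 to 13 without 1 library. Downregulated ones (2) numbered 0 with the block, with all 9 libraries in 1 fit and with either FPKM scale, and 0 to 3 without 1 library. The share of all genes upregulated moved too without 1 library, over 10.2% to 14.2% in SCI vs Sham and 3.23% to 8.8% in SCI + SCS vs Sham. The downregulated share ran over 11.2% to 14.1% and 2.08% to 7.28%. In DESeq2 the upregulated and downregulated shares were 13.6% and 13.2% in SCI vs Sham. They were 2.53% and 2.14% in SCI + SCS vs SCI and 7.19% and 6.25% in SCI + SCS vs Sham. Shares under the other alternatives are not given. The cause of these shifts was not tested.

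Same-numbered libraries deviated from their group means with correlations of 0.24, -0.055 and 0.2 in SCI vs Sham. The correlations were -0.17, 0.002 and -0.2 in SCI + SCS vs SCI and -0.33, 0.022 and -0.31 in SCI + SCS vs Sham. Such values cannot show whether same-numbered rats shared more than a number. The replicate block moved the upregulated collagens in SCI vs Sham from 20 to 24, and the share of all genes under it is not given.

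The sign of the log2FC held under every alternative for 41 members in SCI vs Sham, 37 in SCI + SCS vs SCI and 37 in SCI + SCS vs Sham. None of the others was called. With 1 library left out, log2FC in SCI vs Sham ran from -0.60 to 0.091 for Col10a1, -1.73 to 0.20 for Col6a5 and -0.15 to 0.11 for Col9a3. Col9a3 was also 0.0026 with at least 10 counts in every library, 0.016 with all 9 libraries in 1 fit, 0.0010 with log2(FPKM + 1) and 0.0012 with log2(FPKM + 0.1). In SCI + SCS vs SCI, the range without 1 library was -0.28 to 0.41 for Col10a1, -0.17 to 0.20 for Col24a1, -0.20 to 0.75 for Col2a1, -0.43 to 0.25 for Col4a3, -0.37 to 0.012 for Col4a4, -0.010 to 0.15 for Col9a2 and -0.077 to 0.18 for Col9a3. In SCI + SCS vs Sham it was -0.47 to 0.091 for Col10a1, -0.11 to 0.27 for Col27a1, -0.54 to 0.40 for Col2a1, -0.049 to 1.30 for Col8a1, -1.11 to 0.096 for Col9a1 and -0.026 to 0.16 for Col9a3. Col2a1 was also -0.13 with the replicate block, -0.036 with log2(FPKM + 1) and -0.0969 with log2(FPKM + 0.1), and Col20a1 was -0.0030 with the rows of its identifier summed.

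Of the 44 members, Col10a1, Col9a1, Col17a1 and Col6a4 had under 1 CPM in all libraries, where depth limits the precision.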
